A study of Mus musculus with 24 samples.

Results

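The genes described here are 9 mouse histone demethylases, listed by name with earlier results of these data known: Kdm5a, Kdm5b, Kdm1a, Kdm1b, Kdm2b, Kdm3a, Kdm4a, Kdm4c and Kdm6b. They are 9 of the 9903 protein-coding genes that carried a peak of the RNA modification N6-methyladenosine (m6A) in at least 1 library, out of 21887 such genes in the RefSeq table used. A gene was called marked in a library when at least 1 peak overlapped its body, introns included, by at least 1 bp. All 9 were marked somewhere, in 2 to 12 of the 12 libraries, and together they held 94 peaks.

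The study mapped m6A by antibody pull-down of fragmented RNA from very small samples (picoMeRIP-seq) in C57BL/6N mice, with no genetic change named and no treatment beyond the hormones of superovulation. The 6 stages were GV oocytes of the SN type (fully grown, chromatin around the nucleolus), MII oocytes collected 14 h after the ovulation hormone hCG, zygotes at 27 to 28 h, 2-cell embryos at 39 to 43 h, 8-cell embryos at 68 to 70 h and blastocysts at 92 to 94 h. GV oocytes came from ovaries of females given the gonadotropin PMSG, were stripped of cumulus cells by pipetting and were kept from maturing with IBMX during isolation. Females were 8 weeks old, and each stage had 2 biological replicates, with 49 to 110 oocytes or embryos pooled in each. Input libraries, 12 in number, were not analysed here. In the text, "maternal" means the 6 GV oocyte, MII oocyte and zygote libraries, and "embryonic" the 6 libraries of the 2-cell, 8-cell and blastocyst stages. No more is known of how the pools of a stage were kept apart, so p-values describe these 12 libraries. Between phases, the spread they rest on holds differences between stages of a phase as well as between pools.

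Histone demethylases take methyl groups off histone tails. KDM1 enzymes (LSD1 and LSD2) do so with a flavin cofactor and act on mono- and dimethylated H3K4, whereas the others use a Jumonji domain that needs iron and 2-oxoglutarate, and can also act on trimethyl marks. In mouse oocytes H3K4 trimethylation spreads in broad domains that are removed after fertilization, around the time the embryonic genome is switched on, and KDM5A and KDM5B are known for that removal. The m6A mark on mRNA is written by the METTL3-METTL14 complex and, in most cells, lies mainly near stop codons and in long internal exons.

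The lists held 6914 to 11959 peaks per library, and 3025 to 5237 protein-coding genes were marked in each. Marker genes followed the labels in part. Of 10 oocyte markers, 4 (Gdf9, Mos, Nlrp5 and Bmp15) were marked in each maternal library, and Padi6 in none of these. At the 2-cell stage 2 and 1 were marked, and none in an 8-cell library. Of the 7 listed 2-cell genes found in the table, 5 were marked in both 2-cell libraries and 3 and 4 in the 8-cell ones. Zscan4d was also marked in both GV oocyte libraries and MII replicate 1, and Tdpoz1 in both blastocysts. Of 8 blastocyst genes, 6 and 5 were marked in the blastocysts, 3 and 4 in the 8-cell libraries and Dppa1 in GV replicate 2. Blastocyst replicate 1 also held 5 peaks on 3 oocyte markers (Gdf9, Padi6 and Bmp15), against 0 in replicate 2. Of 10 cumulus and granulosa cell genes, 0 to 3 were marked per maternal library (0 to 4 peaks) and 0 in each embryonic one. Those marked were Inhba, Cyp19a1 and Cyp11a1 in GV oocytes, Inhba, Has2 and Cyp11a1 in MII oocytes and Cyp11a1 in zygote replicate 1. Ptgs2, Amh, Fshr, Tnfaip6, Ptx3 and Foxl2 had no peak in any of the 12 libraries. Of 5 sperm genes only Prm2 was marked, in each maternal library including the GV oocytes, and in no embryonic library. The part of these signals in the results on demethylases was not tested. A missing peak in these data can mean little RNA, little modification or a signal under the peak caller's threshold, and in pools of whole embryos fewer cells of a type and less RNA per cell cannot be told apart.

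From 5 and 4 in GV oocytes, the number of the 9 demethylase genes that were marked went to 3 in each MII oocyte and zygote library, then to 6 and 7 at the 2-cell stage, 7 and 7 at the 8-cell stage and 7 and 6 in blastocysts. Maternal libraries thus held 3 to 5 marked demethylase genes and embryonic libraries 6 to 7, without overlap. Over all genes the same count was 30.5 to 52.9% of 9903 in the maternal libraries and 37.3 to 52.5% in the embryonic ones, with wide overlap. The separation in the demethylases came from Kdm5a, Kdm5b and Kdm3a, and in the other demethylases alone the phases overlapped. As the 9 were chosen with earlier results of these data known, the separation describes the list and does not test it. Counted in peaks, the 9 genes held 5, 6, 3, 4, 4 and 5 in the maternal libraries (27 in all) and 9, 9, 13, 16, 12 and 8 in the embryonic ones (67 in all). Different courses made up this sum: Kdm5a, Kdm5b and Kdm3a had marks from the 2-cell stage on and none before it, Kdm6b and Kdm2b were marked in all 12, and the remaining 4 in parts of the series.

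**Figure D1:**
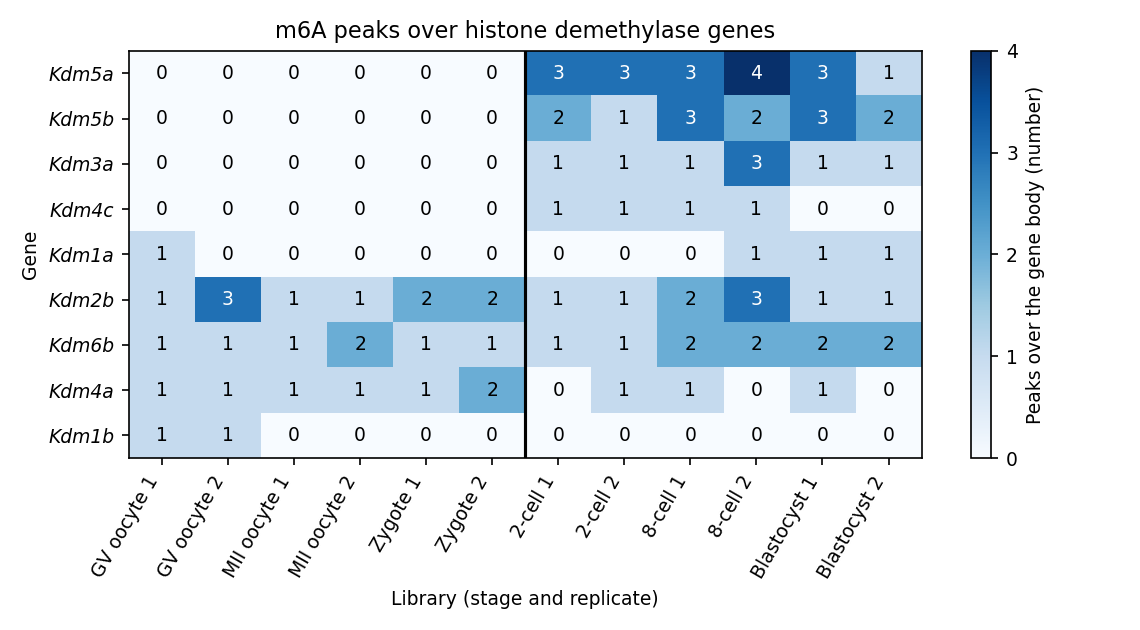
Number of m6A peaks overlapping each demethylase gene (rows) in each of the 12 libraries (columns, replicates 1 and 2 of 6 stages, with the number printed in each cell). Kdm5a, Kdm5b and Kdm3a hold 0 peaks in all 6 maternal libraries and at least 1 in all 6 embryonic libraries, whereas Kdm2b and Kdm6b are marked in all 12.

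Kdm5a and Kdm5b, the pair that strips trimethyl and dimethyl groups from H3K4, were without a peak in every oocyte and zygote library and carried peaks in every embryo library from the 2-cell stage on. Kdm5a (chr6:120364099-120444574, mm10, 80476 bp) held 3 and 3 peaks at the 2-cell stage, 3 and 4 at the 8-cell stage and 3 and 1 in blastocysts, 2.83 ± 0.983 (SD, n = 6) against 0 in each maternal library. Blastocyst replicate 2 was the low one, and the phases did not overlap. Kdm5b (chr1:134560178-134632878, plus strand, 72701 bp) held 2 and 1, 3 and 2, and 3 and 2 peaks, 2.17 ± 0.753 (SD, n = 6), again against 0 in each maternal library. Its 8-cell and blastocyst libraries held 2 or 3 peaks each, and the single peak was in 2-cell replicate 2.

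In bases under a peak the same genes gave 938, 979, 908, 1138, 1141 and 385 bp for Kdm5a and 489, 640, 686, 1015, 658 and 718 bp for Kdm5b in the 6 embryonic libraries, in stage order with replicate 1 first. So a length near 1 kb of Kdm5a was covered in 5 of 6 embryonic libraries, and blastocyst replicate 2 again stood lowest. In each of those 5 libraries this length includes a peak of 277 to 387 bp that also overlaps the gene Ccdc77.

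A presence pattern of 0 of 6 against 6 of 6 libraries gave p = 0.00216 in Fisher's exact test (two-sided), and 0.00963 after Benjamini-Hochberg adjustment over the 2310 genes marked in 5 to 7 libraries. Among those 2310 genes, 21.6% were called with more embryonic than maternal libraries marked and 28% in the reverse direction. Of the 9 demethylases 3 could be tested in this way, Kdm5a, Kdm5b and Kdm3a, and all 3 were called on the embryonic side. As the 9 were chosen with earlier results of these data known, these calls describe the list and do not test it. In the exact permutation test of peaks per gene between the phases (924 splits, two-sided), run over all 9903 genes, the same 3 had p = 0.00216, the smallest value the splits can give, with an adjusted p of 0.0309. That test called 2.93% of genes higher in embryonic libraries and 4.08% higher in maternal ones. In all, 245 genes had this 0 against 6 pattern, 2.47% of 9903. Dropping any 1 maternal library raised the adjusted permutation p of Kdm5a and Kdm5b to between 0.0534 and 0.0632, while the adjusted Fisher p was then between 0.0123 and 0.0140. Replicates of a stage are not independent of that stage: when whole stages were exchanged, the exact p was 0.1, the smallest that 3 stages against 3 can give.

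Peaks of Kdm5a fell in 4 regions. The one present in all 6 embryonic libraries, chr6:120431666-120432099, had fold enrichments, as the authors' peak caller gave them for each list, of 3.95 and 4.03 at the 2-cell stage, 9.01 and 3.90 at the 8-cell stage and 8.79 and 8.55 in blastocysts. Fold enrichment serves here to describe a peak within its own list, since the lists are not on 1 scale. The summits lay within 56 bp of each other, at 84.2% of the gene length from the lower coordinate, and by q-value it ranked above 74.1 to 89.3% of the peaks of its own list. Another region, chr6:120438961-120439284, was present in 4 libraries (both 2-cell, 8-cell replicate 2 and blastocyst replicate 1), with folds of 3.83 to 9.93. The region chr6:120426964-120427293 was found in both 8-cell libraries and no other, ranking above 6.29 and 36.3% of their peaks by q-value. The last, chr6:120364084-120364489, lay at the lower end of the gene in 5 libraries, crossing it in both 2-cell libraries, and also overlapped the neighbouring gene Ccdc77, so its 5 peaks cannot be given to 1 of these genes. Without peaks that overlap several protein-coding genes, Kdm5a kept its 6 embryonic libraries and an adjusted Fisher p of 0.00948. Its mean difference of maternal minus embryonic peaks then went from -2.83 to -2. The table used gives no strand for Kdm5a, so its ends are named by coordinate only.

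Peaks of Kdm5b crowded into the end of the gene. The region chr1:134631105-134631765 held 8 peaks in all 6 embryonic libraries, with summits 1269 to 1646 bp from the 3′ end and a best fold per library of 4.35 to 8.53. The region chr1:134630352-134630732, less than 1 kb before it, appeared from the 8-cell stage on, in both 8-cell and both blastocyst libraries and in neither 2-cell library. Its summits spanned only 12 bp across 4 libraries, 2369 to 2381 bp from the 3′ end, at lower folds of 1.42 to 3.98. By q-value these peaks ranked above 1.99 to 48.9% of their lists, lowest in 8-cell replicate 2 (−log10 q of 2.08). One further region, chr1:134619392-134619591, was a single peak of blastocyst replicate 1 with a fold of 9.27. No peak of Kdm5b lay near its start. The promoter there (300 bases, 250 before and 50 after the RefSeq start, GRCm38.p6, plus strand, chr1:134559928-134560227) is printed because Kdm5b and Kdm3a were marked in the same libraries. Capitals mark GGGCGG, the GC box core bound by Sp1-type factors, on either strand.
Kdm5b promoter: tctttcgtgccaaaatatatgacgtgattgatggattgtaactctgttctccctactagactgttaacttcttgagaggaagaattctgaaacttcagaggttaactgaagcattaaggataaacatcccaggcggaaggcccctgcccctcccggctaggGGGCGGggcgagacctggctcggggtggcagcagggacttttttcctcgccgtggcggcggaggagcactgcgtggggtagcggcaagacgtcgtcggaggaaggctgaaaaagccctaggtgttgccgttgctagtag
The Kdm5b window holds 1 GGGCGG match and no match to CCAAT, bound by the factor NF-Y, or to TAATCC, the core bound by OBOX and OTX homeodomain factors.

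Kdm3a, which removes mono- and dimethyl groups from H3K9, was marked in the same libraries as the KDM5 pair. The gene (chr6:71588970-71632990, minus strand, 44021 bp) had 0 peaks in each maternal library and 1, 1, 1, 3, 1 and 1 peaks in the embryonic ones, 1.33 ± 0.816 (SD, n = 6). The bases covered were 201, 256, 466, 1014, 350 and 372 bp, so 8-cell replicate 2 was the high library by both measures. One region, chr6:71611509-71612095, was present in all 6 embryonic libraries, with folds of 3.97, 5.19, 8.26, 5.21, 4.30 and 11.9. Unlike the last regions of Kdm5b it lay in mid-gene, at 48.1% of the length from the start. The other regions, chr6:71589402-71589642 at 542 bp from the 3′ end and chr6:71607563-71607783, were found in 8-cell replicate 2 alone. Tests were those given above, and the alternatives left the adjusted Fisher p of Kdm3a between 0.00837 and 0.0202, that of Kdm5a in the same range and that of Kdm5b between 0.00837 and 0.0430. When peaks under their own list's median fold were dropped, Kdm5a and Kdm3a fell under the 5 marked libraries that test needs, and Kdm5b was the 1 demethylase still called. Its first-start promoter (GRCm38.p6, minus strand, chr6:71632868-71633167) is given for comparison with Kdm5b, with CCAAT and GGGCGG in capitals on either strand.
Kdm3a promoter: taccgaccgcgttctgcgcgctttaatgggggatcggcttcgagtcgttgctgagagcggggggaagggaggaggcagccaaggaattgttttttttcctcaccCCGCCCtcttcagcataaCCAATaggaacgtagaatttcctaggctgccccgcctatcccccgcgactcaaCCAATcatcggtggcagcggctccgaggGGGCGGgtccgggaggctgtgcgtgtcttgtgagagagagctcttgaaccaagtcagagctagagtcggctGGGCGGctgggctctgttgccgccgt
It holds 2 CCAAT and 3 GGGCGG matches. Over all 32851 promoter windows of this length in the RefSeq table, 37.4% hold CCAAT, 35.7% GGGCGG and 7.06% TAATCC, so GGGCGG in both windows is a common feature. No m6A peak of any of the 12 libraries touched either window.

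**Figure D2:**
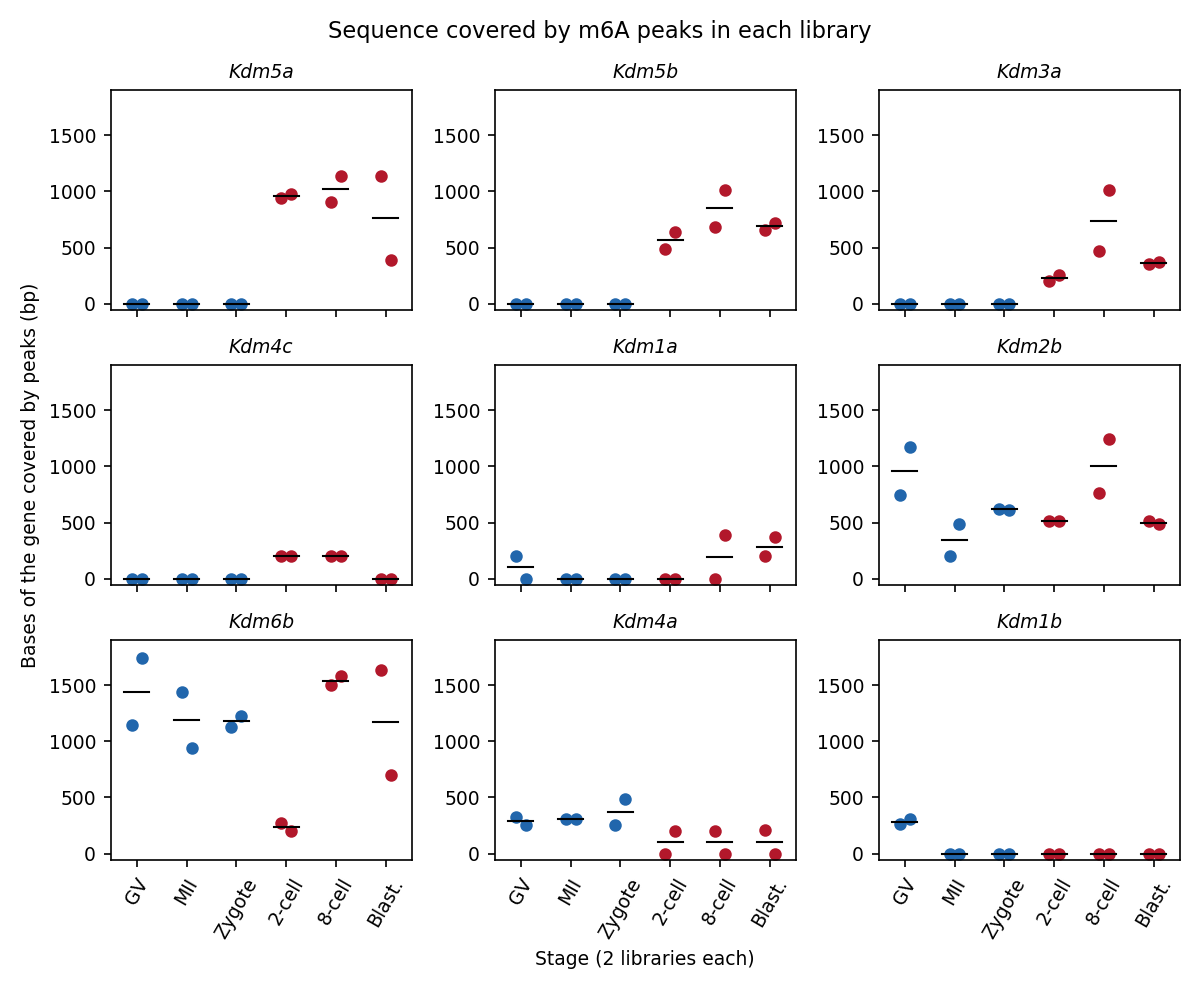
Bases of each gene covered by m6A peaks (vertical axis, bp) in each library (points), by stage on the horizontal axis from GV oocyte to blastocyst, with maternal libraries in blue, embryonic libraries in red and a line at the mean of each stage. Kdm5a, Kdm5b and Kdm3a leave 0 from the 2-cell stage on, Kdm4a goes from 253 to 490 bp in maternal libraries to at most 206 bp, and Kdm6b is lowest in both 2-cell libraries.

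Kdm4c and Kdm4a, both of which act on trimethylated H3K9 and H3K36, were marked in parts of the series, Kdm4c in embryonic libraries alone and Kdm4a in both phases. Neither was called in the phase test by number of peaks. Kdm4c (chr4:74242497-74405864, plus strand, 163368 bp) had 0 peaks in each maternal library, 1 in each 2-cell and 8-cell library and 0 in both blastocysts. Being marked in just these 4 libraries was seen in 50 genes, 0.505% of 9903. The 4 peaks did not share a place: chr4:74313209-74313408 in 2-cell replicate 1 and chr4:74336737-74336936 in 2-cell replicate 2 lay in mid-gene, and only the 8-cell libraries agreed, at chr4:74404824-74405028, 943 to 945 bp from the 3′ end. The mid-gene peaks were also weak, ranking above 6.44 and 5.34% of the peaks of their lists by q-value, and the 8-cell peaks above 31.3 and 40.7%. The phase permutation gave an exact p of 0.0606 for Kdm4c (adjusted 0.232), and with 4 marked libraries the gene was not part of the Fisher test.

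Kdm4a (chr4:118136957-118180090, minus strand, 43134 bp) is known as a maternal factor that removes H3K9 trimethylation in oocytes. It held 1, 1, 1, 1, 1 and 2 peaks in the maternal libraries and 0, 1, 1, 0, 1 and 0 in the embryonic ones, so each embryonic stage had 1 marked and 1 unmarked replicate. The bases covered were 324, 254, 310, 310, 253 and 490 bp against 0, 203, 200, 0, 206 and 0 bp, and here the phases did not overlap, as in 7.33% of all genes in this direction. By number of peaks the exact permutation p was 0.121 (adjusted 0.410). By bases covered, an alternative measure, it was 0.00216 (adjusted 0.0197), and Kdm4a was then called higher in maternal libraries, along with 9.06% of all genes, while 4.55% were called in the embryonic direction and with them Kdm5a, Kdm5b and Kdm3a. The main region, chr4:118138116-118138439, was in all 6 maternal libraries, 2-cell replicate 2 and blastocyst replicate 1, with summits within 37 bp, 1257 to 1294 bp from the 3′ end, and folds of 2.60 to 6.98. The peak of 8-cell replicate 1 lay just beside it, at chr4:118137878-118138077. Zygote replicate 2 had another, chr4:118177508-118177742, whose summit was 2443 bp downstream of a RefSeq start. Of the 3 embryonic libraries with a Kdm4a peak, blastocyst replicate 1 and 2-cell replicate 2 also held peaks on oocyte markers (5 and 2), and 8-cell replicate 1 held 0. Of the 3 without a Kdm4a peak, 2-cell replicate 1 held 4 on oocyte markers, and 8-cell replicate 2 and blastocyst replicate 2 held 0. The part of oocyte marker signal in the Kdm4a peaks was not tested.

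Kdm6b, the JMJD3 enzyme that acts on trimethylated H3K27, was marked in all 12 libraries and always at the same place. All its 17 peaks fell in 1 region of 1958 bp, chr11:69403861-69405818, in a gene of 21860 bp (chr11:69398508-69420367, no strand in the table). The best peak of each library had its summit 6116 to 6157 bp from the lower end of the gene, a span of 41 bp over 12 libraries. Second peaks, 5 in all, lay 6804 to 7124 bp from that end, in MII replicate 2, both 8-cell and both blastocyst libraries. Its bases covered were 1142, 1740, 1443, 945, 1132 and 1224 bp in the maternal libraries, 268 and 200 bp at the 2-cell stage, 1502 and 1580 bp at the 8-cell stage and 1634 and 704 bp in blastocysts. Both 2-cell libraries were thus below each of the other 10. This pattern was counted among genes marked in all 12 libraries, and 75 of those 828 genes had it. Genes outside the 828 could not be counted, so the share over all 9903 (0.757%) understates how common it is. By q-value its best peak ranked above 88.0 to 98.3% of the list in maternal libraries and above 23.7 to 87.3% in embryonic ones.

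Kdm6b was not called. By number of peaks the exact permutation p was 0.242 between the phases (adjusted 0.571) and 0.152 between the 6 stages (adjusted 0.366). By bases covered, the alternative measure, it was 0.348 between the phases (adjusted 0.659) and 0.108 between the stages (adjusted 0.214). The mean was higher in embryonic libraries by number of peaks and in maternal ones by bases covered. In all, 828 genes were marked in all 12 libraries, 8.36% of 9903, Kdm6b and Kdm2b included.

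Kdm2b, which binds unmethylated CpG islands through a zinc finger and brings a form of Polycomb complex there, was the other gene marked in all 12 libraries. The gene (chr5:122870664-122989270, minus strand, 118607 bp) held 1, 3, 1, 1, 2 and 2 peaks in the maternal and 1, 1, 2, 3, 1 and 1 in the embryonic libraries, with an exact permutation p of 1 between the phases. The region chr5:122871212-122871973 was present in 11 libraries, all but MII replicate 1, with summits 909 to 1170 bp from the 3′ end. Its fold ran from 2.23 to 15.5, and in 11 lists it ranked above 47.5 to 96.6% of the peaks by q-value.

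At the opposite end of Kdm2b, MII replicate 1 and both zygote libraries, and no other library, had a peak at chr5:122987780-122987987. The summits lay within 10 bp of each other, with folds of 3.90, 4.98 and 3.54, 646 to 656 bp downstream of the RefSeq start at 122988507 and 1238 to 1248 bp downstream of the one at 122989099. These peaks ranked above 72.8 to 80.2% of their lists by q-value. MII replicate 1 was the library without the 3′ region, so its single Kdm2b peak was the one at the start end. The promoter of the nearer start (GRCm38.p6, minus strand, chr5:122988458-122988757) is shown because it is the window closest to those peaks, and it holds none of the 3 motifs searched, so no base is in capitals.
Kdm2b promoter: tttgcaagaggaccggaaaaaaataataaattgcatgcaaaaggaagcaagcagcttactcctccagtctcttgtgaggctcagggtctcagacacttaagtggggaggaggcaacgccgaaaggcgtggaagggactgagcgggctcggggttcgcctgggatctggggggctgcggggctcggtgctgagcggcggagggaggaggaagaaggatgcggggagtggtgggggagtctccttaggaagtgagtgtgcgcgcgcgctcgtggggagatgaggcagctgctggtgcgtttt
Further Kdm2b regions were chr5:122906402-122906745 in both 8-cell libraries, and single peaks in GV replicate 2 (regions chr5:122921469-122921668 and chr5:122932499-122932734) and 8-cell replicate 2. In the first of these, the peak of 8-cell replicate 1 was near the floor of its list, with a −log10 q of 1.62, and ranked above 1.26% of the peaks.

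Kdm1b and Kdm1a, the flavin-dependent enzymes, had 1 region each, marked in 2 and 4 libraries. Kdm1b (chr13:47043373-47085279, plus strand, 41907 bp), needed in growing oocytes for DNA methylation at imprinted genes, had 1 peak in each GV oocyte library and 0 in the other 10. Both peaks lay at chr13:47082787-47083090, 2393 and 2400 bp from the 3′ end, with folds of 2.46 and 3.18. This pattern, both GV oocyte libraries and no other, was seen in 185 genes, 1.87% of 9903. Its exact permutation p between the phases was 0.455 (adjusted 0.759).

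Kdm1a (chr4:136550533-136602787, minus strand, 52255 bp) had 1 peak in GV replicate 1, 8-cell replicate 2 and both blastocysts and 0 elsewhere. All 4 lay at chr4:136550643-136551033, 247 to 355 bp from the 3′ end, where the gene Luzp1 overlaps, so none can be given to Kdm1a alone. The GV peak had a fold of 1.73 and ranked above 3.54% of its list, and the other 3 had folds of 2.83 to 3.48 and ranked above 35.8 to 42.9%. The phase permutation gave an adjusted p of 0.869.

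**Figure D3:**
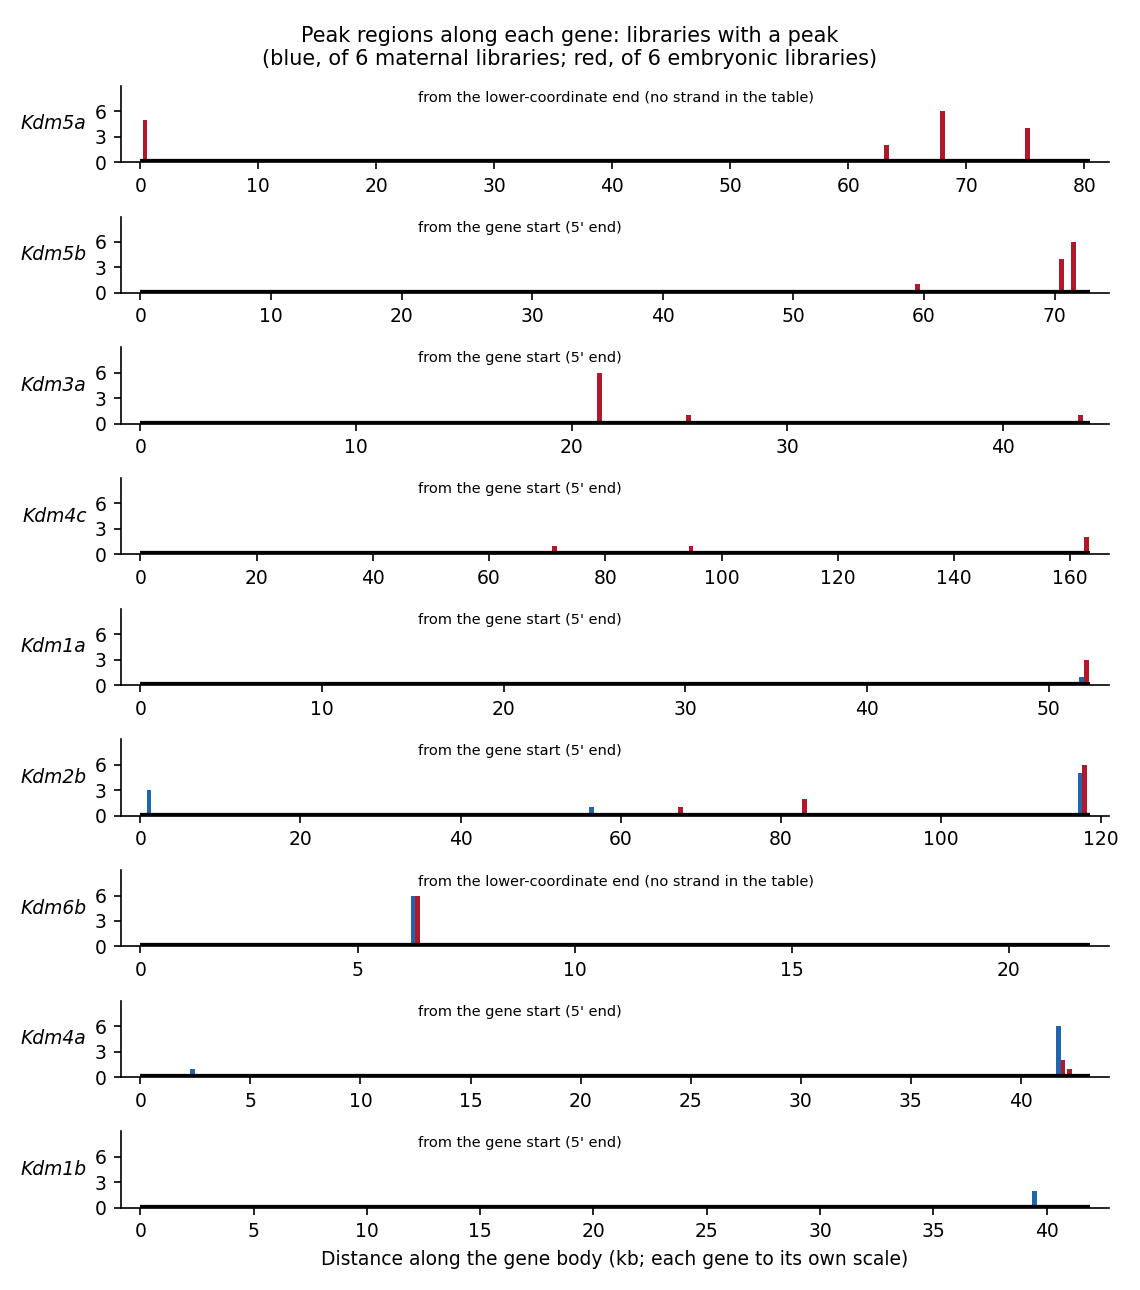
Peak regions along each demethylase gene, with distance along the gene body in kb on the horizontal axis (each gene to its own scale) and the number of libraries with a peak there on the vertical axis (blue, of 6 maternal; red, of 6 embryonic). Bars stand at region midpoints and are wider than the peaks. Kdm2b, Kdm4a, Kdm4c, Kdm1a (shared with Luzp1) and Kdm5b have regions at the 3′ end, Kdm3a has its main region in mid-gene.

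By position, the 94 peaks merged into 25 regions, of which 10 were seen in 1 library, 5 in 2 or 3 and 10 in at least 4. Regions seen in embryonic libraries alone numbered 16, those in maternal libraries alone 5, and 4 were seen in both. Peaks of the 7 genes with a known strand had their summit within 2000 bp of the 3′ end of the gene in 35 of 60 cases (58.3%) and within 2000 bp of the start in 3 (5%). For all 4913 stranded protein-coding genes over 20000 bp these shares were 20.7% and 4.04% of 50565 peaks, and the 3′ share ran from 13.9 to 27.8% per library. Members differed: 4 of 4 peaks of Kdm1a, 9 of 10 of Kdm4a, 11 of 19 of Kdm2b, 8 of 13 of Kdm5b, 2 of 4 of Kdm4c, 1 of 8 of Kdm3a and 0 of 2 of Kdm1b lay in the 3′ window. The 4 of Kdm1a, counted in the 35, also overlap Luzp1 and cannot be given to Kdm1a alone. Peaks of 1 gene in several libraries are the same site read again, so these shares are a description. In total peaks over the 12 libraries, Kdm2b had 19, and Kdm5a and Kdm6b 17 each, numbers that 12.0 and 14.9% of the 9903 genes reached. The median gene had 6 peaks in 5 libraries, the median demethylase 10 peaks in 6 libraries.

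Step by step, a gene was said to gain or lose marking when both replicates of a stage were unmarked and both of the next marked, or the reverse. Kdm1b was lost from GV to MII oocytes, as were 8.74% of genes, while 3.33% were gained. No demethylase changed from MII oocyte to zygote, where 0.666% of genes were gained and 2.53% lost. From zygote to 2-cell embryo Kdm5a, Kdm5b, Kdm3a and Kdm4c were gained and none was lost, against 9.88% gained and 7.94% lost over all genes. The 2-cell peaks of Kdm4c had −log10 q values of 3.01 and 3.47, and at a minimum of 5, or at equal list length, Kdm4c was gained from 2-cell to 8-cell instead, which left 3 demethylases gained at this step. No demethylase met either rule from 2-cell to 8-cell (10.9% gained and 5.66% lost over all genes). From 8-cell to blastocyst Kdm4c was lost and none gained, against 4.29% lost and 4.79% gained. Steps rest on 2 libraries against 2, too few for an exact test to reach the threshold, so no test is given.

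**Figure D4:**
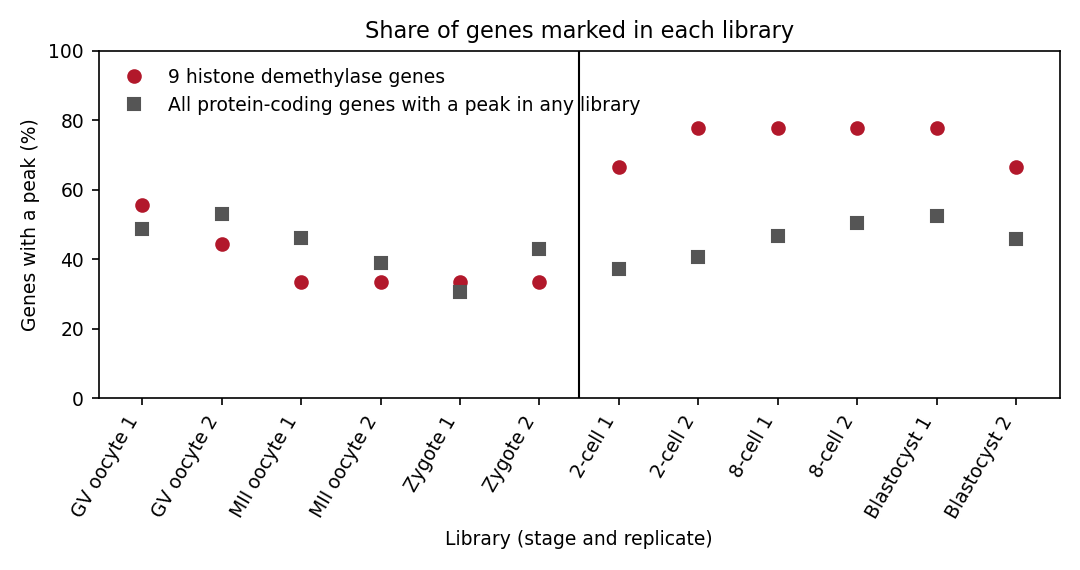
Share of genes marked (vertical axis, percent) in each library (points), by stage on the horizontal axis, for the 9 demethylases and for all 9903 protein-coding genes with a peak. The demethylases hold 3 to 5 marked genes in maternal and 6 to 7 in embryonic libraries, while the share over all genes overlaps between the phases. The separation comes from Kdm5a, Kdm5b and Kdm3a, in a list chosen with earlier results of these data known.

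In the test over 6 stages (exact permutation of pairings, one-sided, 10395 pairings), which asks whether replicates of a stage hold more alike numbers of peaks than libraries of different stages, 0% of the 9903 genes were called, with 1924 genes at an unadjusted p under 0.05. Unadjusted exact values were 0.0173 for Kdm5a, 0.0130 for Kdm5b, 0.0216 for Kdm3a and 0.0303 for Kdm4c, each 0.177 after adjustment. With bases covered in place of peak numbers 6.57% of genes were called, and Kdm3a was the single demethylase among them (adjusted p = 0.0389, exact permutation).

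Genes with the most similar peak numbers over the 12 libraries were found by Pearson's r among the 6907 genes marked in 3 to 11 libraries. For Kdm5a they were Sde2 and Sgpp1 (r = 0.99 each) and Dnaaf2 (0.98), with 156 genes at r of at least 0.9. For Kdm5b they were Zfp871, Sertad1 and Zfp267 (0.97 each), with 119 such genes. Kdm3a had 35 such genes, with 2410002F23Rik, Ndor1 and Rab20 at r = 1, and Kdm4c 54, with AF067063, Actr5 and Bex1 at r = 1. Kdm1a had 4, among them Cc2d1a, Jpt1 and Kctd5 at r = 1. Kdm4a had none, the nearest being Uqcrb (0.87), Myo9b (0.86) and Cbx2 (0.83). Small whole numbers make identical patterns frequent, and all genes share the 12 libraries and their depth, so r is given without a test. Among the demethylases themselves r was 0.84 for Kdm5a with Kdm5b, 0.86 for Kdm5a with Kdm3a, 0.69 for Kdm5b with Kdm3a and -0.65 for Kdm3a with Kdm4a.

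A list of other demethylases and Jumonji-domain genes held 17 genes, of which 11 had a peak in some library, while Kdm4d, Kdm5d, Uty, Kdm8, Phf2 and Hr had none. Over all genes, 9903 of 21887 had a peak. Fisher's exact test called 21.6% of the 2310 genes it covered as embryonic and 28% as maternal. Of 4 that could be tested by Fisher's exact test, Riox1, a ribosomal oxygenase, was called on the embryonic side (0 in each maternal library, then 2, 3, 3, 3, 2 and 0 peaks, adjusted p = 0.0306). Its adjusted permutation p over peak numbers was 0.103. Among the closest relatives of the 9, Kdm5c of the X chromosome was marked in 11 libraries, 5 maternal and 6 embryonic. Jmjd1c, of the KDM3 group, was marked in all 12, with 1 to 4 peaks per maternal and 1 to 5 per embryonic library. Kdm7a and Riox2 were marked in 10 libraries each. Outside the naming rule, and chosen after their values were seen, are Kdm3b, Kdm2a and Kdm6a, the nearest relatives of Kdm3a, Kdm2b and Kdm6b. Kdm3b had 0, 1, 0, 0, 0 and 0 peaks in the maternal and 1, 0, 4, 4, 4 and 3 in the embryonic libraries, with an adjusted p of 0.143 in Fisher's exact test. Kdm2a had 0, 2, 0, 1, 0 and 0 against 0, 0, 3, 3, 2 and 3 peaks, with an adjusted p of 0.698 in the same exact test. Neither was called, and both had most of their peaks in the 8-cell and blastocyst libraries. The X-linked H3K27 enzyme Kdm6a had 2 peaks in each GV oocyte library, 0 from MII oocytes to the 2-cell stage, and 3, 3, 2 and 2 peaks in the 8-cell and blastocyst libraries. It was not called either, with an adjusted p of 0.698 in Fisher's exact test and 0.167 in the exact permutation over stages. The autosomal Kdm6b kept its peak throughout these stages.

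Partner proteins of these enzymes (CoREST, SIN3 and Polycomb subunits among them) had a peak in 14 of 17 cases, and 0 of 5 tested were called. Over all genes 9903 of 21887 had a peak, and of those tested 28% were called as maternal and 21.6% as embryonic. With so few genes tested, 0 calls cannot tell this list, or those that follow, from all genes. Sin3a, the scaffold of a histone deacetylase complex that can hold KDM5 proteins, was marked in all 12 libraries, as were Glyr1, a partner of KDM1B, and Zmym2, of the CoREST complex. Gse1 was marked in 11. The enzymes that write H3K4 methylation and their subunits were all marked somewhere (14 of 14), and 0 of 3 tested were called. Kmt2b, the main writer of H3K4 trimethylation in the oocyte, held 2 peaks in each maternal library and 2 or 3 in each embryonic one, and Kmt2c 5 or 6 against 4 to 9. Kmt2d and Setd1a were marked in 10 libraries each.

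The H3K9 methyltransferases (6 of 6 with a peak, 1 tested, 0 called) included Ehmt1 in all 12 libraries and Suv39h2 in 11, with Setdb2 in 8 and Setdb1 in 7. The writers of H3K27 and H3K36 methylation (9 of 9 with a peak) had no member in the range that Fisher's test covers. Ash1l, Nsd1, Nsd3 and Setd2 were marked in all 12. In peaks per library, the median difference of maternal minus embryonic was -0.5 for the 9 demethylases and -0.5 for the other demethylases, -0.33 for the partners and -0.33 for the H3K4 writers. It was 0.0833 for the H3K9 writers and 0 for the H3K27 and H3K36 writers, beside -0.17 over all 9903 genes.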

How the data were processed

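The 12 deposited m6A peak lists, 1 per pool and in narrowPeak format, were used. Per the submitters' processing notes, the tools included cutadapt 1.8.1, HISAT2 2.1.0, SAMtools 1.9, bedtools 2.28.0 and MACS2 2.1.2, with the mouse build mm10. The calling threshold was not given in the sources used here. Each line of the authors' lists gives a peak's coordinates, a score, a fold enrichment (a ratio), −log10 p and −log10 q values and a summit. Deposited −log10 q values started at 1.30. The read depth behind a peak is unknown, so no interval or floor is given, and the numbers of libraries and of peaks limit the precision.

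On chromosomes 1 to 19, X and Y, 143566 summit lines were collapsed to 113755 peaks, 1 per interval, keeping the best q. Peaks were laid over the gene bodies of the RefSeq table (GRCm38.p6, the assembly of mm10). Strand came from the RefSeq promoter table, which covers 17492 of the 21887 genes and not Kdm5a or Kdm6b. Exons were not used here, so a peak is placed in a gene and not in an exon or intron.

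Marking was compared between phases by Fisher's exact test, and peaks per gene by exact permutation tests between phases and between stages, each with Benjamini-Hochberg adjustment over all genes tested (threshold 0.05). Scripts ran in Python 3.11.15 with numpy 2.4.6 and scipy 1.17.1 and were tested on simulated data. Named genes were the 9 demethylases, every list gene called by a test with up to 4 more of the most marked per list, and the 3 genes most alike to each demethylase marked in 3 to 11 libraries. Members and lists were chosen with earlier results of these data known. Alternatives changed the length of the lists, the peak threshold, the overlap rule, the counting unit and the libraries used. Same-numbered replicates were checked for pairing (15 pairs of stages).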

Additional observations from a re-analysis of the deposited data

Results flagged for a closer look

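In groups of 6 libraries, a value was singled out where its gap to the nearest of the other 5 was more than 0.625 of the whole range (Dixon's 95% limit). Chance alone passes that limit in about 5% of groups, and with small whole numbers a single library that differs by 1 peak from 5 equal ones always passes it. In the embryonic libraries, Kdm5a was lowest in blastocyst replicate 2, with 1 peak against 3 in the nearest library and 385 bp covered against 908 bp. Of its regions, that library kept the 1 present in all 6. Kdm3a was highest in 8-cell replicate 2, with 3 peaks against 1 and 1014 bp against 466 bp. Kdm2b was highest in the same library by bases covered, with 1240 bp against 766 bp. This 8-cell pool held 51 embryos, where the other held 100, and their lists held 9463 and 8802 peaks; the part of either in these values was not tested.

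In the maternal libraries, Kdm1a stood apart in GV replicate 1, with 1 peak and 202 bp covered against 0 in the other 5, at the place shared with Luzp1. Kdm4a was highest in zygote replicate 2, with 2 peaks against 1 and 490 bp against 324 bp. Kdm6b was highest in MII replicate 2, with 2 peaks against 1 in the nearest library.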

How the results depend on the processing

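Over all alternatives, 286 counts and 387 single-gene values kept their direction and their side of the threshold or stayed within 1.5 times, while 34 counts moved by more and of the single-gene values 21 lost their call, 2 gained one and 6 reversed. When peaks under their own list's median fold were dropped, Fisher's exact test called 344 genes as maternal, 225 as embryonic and 1 demethylase, and the phase permutation 0 genes either way and 0 demethylases (797 genes at an unadjusted p under 0.05). From zygote to 2-cell 562 genes and 1 demethylase were then gained and 457 genes lost, from 2-cell to 8-cell 866 genes and 2 demethylases were gained, and from 8-cell to blastocyst 314 genes were gained and 356 genes and 0 demethylases lost. At an equal list length of 6914 peaks, 143 genes were lost from MII to zygote, and 993 genes and 1 demethylase gained from 2-cell to 8-cell. At a −log10 q of at least 5 that gain was 1019 genes and 1 demethylase. By bases covered, the phase test called 897 genes as maternal, 451 as embryonic and 1 demethylase as maternal, and the stage test 651 genes and 1 demethylase. Exchanging whole stages called 0 genes either way and 0 demethylases, as no p can fall under 0.1.

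The check gave no clear sign that replicate numbers pair the samples: the correlation of replicate differences between stages ran from -0.31 to 0.11 and exceeded 0.1 in 1 of 15 pairs. With the replicate number as a block, the phase permutation called 0 genes in either direction and 0 demethylases (1695 genes at an unadjusted p under 0.05), and Kdm5a, Kdm5b and Kdm3a had an adjusted p of 0.0687. Their unadjusted p was 0.005, the smallest the blocked splits can give, so this setting cannot show an effect of the block. Fisher's exact test with the same block still called 647 genes as maternal, 498 as embryonic and these 3 demethylases (adjusted p = 0.0202).

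Without 1 library at a time, Fisher's exact test called 675 to 909 genes as maternal, 501 to 815 as embryonic and 3 to 4 demethylases. The phase permutation called 325 to 526, 196 to 412 and 1 to 3, and the stage test 0 in each case. Direction reversed for uncalled genes only: Kdm2b at the own-median fold (adjusted p = 0.357), by bases covered (1) and without GV replicate 2 (1, with 0.620 to 1 over the libraries left out in turn), and Kdm6b at the own-median fold (0.878), with every summit line (0.471) and by bases covered (0.659), all exact permutation values. Leaving out peaks over several protein-coding genes, an alternative chosen after seeing the data, changed no call on a demethylase. The cause of these shifts was not tested.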
